A study of Mus musculus with 8 samples.

Results

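The interleukin-1 family is a group of secreted signalling proteins with their receptors and natural inhibitors, and 9 of its genes were followed here: Il1a, Il1b, Il1rn, Il1r1, Il1r2, Il1rap, Il18, Il18bp and Il33. They were taken as every non-control probe whose gene name in the array files was one of these 9, which gave 11 probes on 20 spots, out of 55681 probes for 34787 genes. Il1b had 1 probe printed on 10 spots, Il1rap had 3 different probes, and each other gene had 1 probe on 1 spot.

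RNA came from bone marrow of B6 mice with the transgene Tg(CAG-DsRed*MST)1Nagy, in which the broadly active CAG promoter drives the red protein DsRed, and all 4 groups carried it. LPS macrophages were bone marrow cells grown for 7 days with M-CSF, the macrophage growth factor, and then given lipopolysaccharide, a bacterial cell wall product, for 24 hours. IL-4 macrophages were grown the same way and given interleukin-4, the standard stimulus of alternative activation, for 24 hours, and control macrophages stayed in control media. Colony cells were bone marrow cells kept for 7 days on a monolayer of endothelial cells in HSC media, so substrate and medium changed together against control. Each group had 2 samples, each on 1 array with 1 colour, 8 arrays in all. The series title poses the question of whether endothelial cells direct macrophages towards an M2-like state. Whether the replicates were separate animals or separate cultures is not stated in the labels, so every p below measures only the spread between these samples, which may be technical. The origin of the endothelial cells, and whether they were removed before RNA was extracted, are likewise not stated.

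In this family IL-1 alpha and IL-1 beta bind the same receptor, IL-1R1, which needs the accessory protein encoded by Il1rap to pass the signal to the adaptor MyD88 and on to NF-kappaB. The signal is held back by the receptor antagonist (Il1rn), which occupies the receptor without activating it, and by the decoy receptor (Il1r2), which binds the ligand and cannot signal. IL-18 and IL-33 use related receptors, and IL-18 is held back by its own binding protein, Il18bp. Macrophages are a main source of IL-1 beta, while IL-33 is best known from barrier and stromal cells.

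The arrays were alike in most respects. LPS replicate 2 stood apart, with 72.2% of its spots well above background (62.4% to 67.5% elsewhere), 105 uneven spots (0 to 5 elsewhere) and a spike-in detection limit, 2.1, outside the range the software accepts. The arrays' median signals ran from 28.1 to 55.1 intensity units. Levels below are log2 signals relative to the 75th percentile of the same array. A level of one probe cannot be set against that of another. Macrophage markers were well above background in all groups, 8 of 8 genes, but their summed scaled signal was 170 to 175 in colony cells against 2050 to 2060 in control. In colony cells 7 of these markers were called lower than in control and 1 higher, with calls as defined below.

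The promoters of Il1a, Il1b and Il1rn are shown because these 3 genes had the largest fitted rises under LPS. They are the 250 bases before a RefSeq transcript start on GRCm38.p6, 5′ to 3′ on the strand of the gene, and capitals mark TATAAA and GGGAAA on either strand. The Il1a window is chr2:129309973-129310222 (minus strand), the Il1b window chr2:129371140-129371389 (minus strand), and the Il1rn window, before the second of its 3 listed starts, chr2:24345041-24345290 (plus strand).
Il1a: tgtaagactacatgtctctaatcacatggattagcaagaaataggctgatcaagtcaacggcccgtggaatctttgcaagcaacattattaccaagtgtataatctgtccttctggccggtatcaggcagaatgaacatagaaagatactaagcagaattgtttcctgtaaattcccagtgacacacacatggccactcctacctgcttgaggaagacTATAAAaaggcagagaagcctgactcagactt
Il1b: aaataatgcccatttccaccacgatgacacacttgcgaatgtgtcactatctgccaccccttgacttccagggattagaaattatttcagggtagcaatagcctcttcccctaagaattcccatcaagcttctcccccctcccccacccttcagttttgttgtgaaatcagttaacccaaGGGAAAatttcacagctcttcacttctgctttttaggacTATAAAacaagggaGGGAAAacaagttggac
Il1rn: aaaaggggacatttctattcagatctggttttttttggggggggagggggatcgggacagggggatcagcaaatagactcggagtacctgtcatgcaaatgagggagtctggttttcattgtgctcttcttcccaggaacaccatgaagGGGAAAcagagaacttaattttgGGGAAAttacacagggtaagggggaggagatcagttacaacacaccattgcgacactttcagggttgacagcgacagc
Il1a and Il1b each held 1 TATAAA, 32 and 31 bases before the start, and none of the 3 Il1rn windows did. Among the 13 windows listed for the 9 genes, it was also present in that of Il18 (175 bases before the start) and in both of Il33 (203 and 29 bases). TATAAA lay in 12.4% of 32851 mouse promoter windows of this length. GGGAAA, part of many NF-kappaB sites, was found in Il1b (2 matches) and in each Il1rn window, not in Il1a, and in 21.9% of all windows. The full NF-kappaB consensus (7.25% of all windows) was absent from the 3 genes and matched once, in 1 of the 2 Il1r1 windows. The C/EBP core TTNNGNAA (36.8% of all windows) was present in Il1a, Il1b and 2 of the 3 Il1rn windows. These 2 Il1rn windows overlap and share 1 such site, which overlapped a GGGAAA. The core was also present in both Il1r1 windows, in that of Il18bp and in both of Il33. The AP-1 site TGANTCA (6.75% of all windows) was present in Il1a and in 1 Il1rn window. These 5 motifs, searched on both strands, were chosen after the sequences had been seen, and a match is a description of letters and not of binding.

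LPS macrophages had higher signal than control for 8 of the 9 genes, with the ligands Il1a and Il1b and the antagonist Il1rn ahead. Of all 26508 genes tested 54.7% were called in this comparison, 28.9% higher and 25.8% lower. No member was called lower, and the median log2 fold change was 2.57 for the members against 0.08 for all genes. Calls are limma's, with a Benjamini-Hochberg adjusted p under 0.05. In bulk RNA, a change in the number of cells of a type and a change in RNA per cell cannot be told apart, here and in every comparison below.

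Il1b, the gene of IL-1 beta, read 8.11 and 8.33 on the LPS arrays, against 0.79 and 0.56 on the control arrays. The 2 groups did not overlap, and the LPS arrays were the highest of all 8. Such separation is given here and below as a description only, because its share over all genes was not counted. The fitted change was 7.54 ± 0.18 on the log2 scale (SE, 2 arrays per group, limma adjusted p = 3.8e-06), a 187-fold rise. Il1a, the gene of IL-1 alpha, read 4.06 and 4.27 on the LPS arrays, while neither control array (-8.16 and -6.86) was well above background. Its rise was therefore given as at least 1170-fold (limma adjusted p = 1.2e-05). The higher of the control signal and the lowest signal well above background stood in for control. With another background correction, normexp, the rise was 7.22 on the log2 scale, below that bound.

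Il1rn, the receptor antagonist gene, read 4.25 and 4.06 in LPS macrophages, against -3.15 and -2.99 in control. It rose by 7.23 ± 0.13 (limma adjusted p = 2.3e-06), a 150-fold rise. Within an array the difference Il1rn minus Il1b shifted by -0.31 between LPS and control, and by -1.28 with normexp. For Il1rn minus Il1a the shift was -4.45, towards the ligand and smaller but in the same direction with normexp, though Il1a was dim in control. These shifts are given without a test, and those with normexp were added after the data were seen.

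The signalling receptor gene Il1r1 read -1.85 and -2.14 in LPS macrophages, against -5.74 and -6.23 in control, where 1 of 2 arrays was well above background. It rose by 3.99 ± 0.18 (limma adjusted p = 2.9e-05). The decoy receptor gene Il1r2 read -3.48 and -3.42 in LPS macrophages, against -4.56 and -5.05 in control, and rose by 1.36 ± 0.21 (limma adjusted p = 0.0031). Both receptors were higher on both LPS arrays than on either control array. With another background correction (normexp, whose offset of 50 intensity units shrinks folds of dim signals by construction) Il1r1 rose by 1.36, and Il1r2, at 0.27, was no longer called (limma adjusted p = 0.091). The same correction gave 7.22 for Il1a and 6.21 for Il1rn, both still called.

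Il18, the gene of IL-18, read 3.87 and 3.74 in LPS macrophages, against 1.79 and 1.39 in control, a rise of 2.22 ± 0.14 (limma adjusted p = 1.0e-04). Its inhibitor gene Il18bp read 4.56 and 4.56 in LPS macrophages, against 2.00 and 1.99 in control, a rise of 2.57 ± 0.06 (limma adjusted p = 4.0e-06). Neither gene's groups overlapped. Il33, the gene of IL-33, was not well above background on any LPS or control array, so no fold is given. Without LPS replicate 2 the same comparison again called 8 members, and Il1b and Il1rn differed from control by 7.43 and 7.32.

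**Figure D1:**
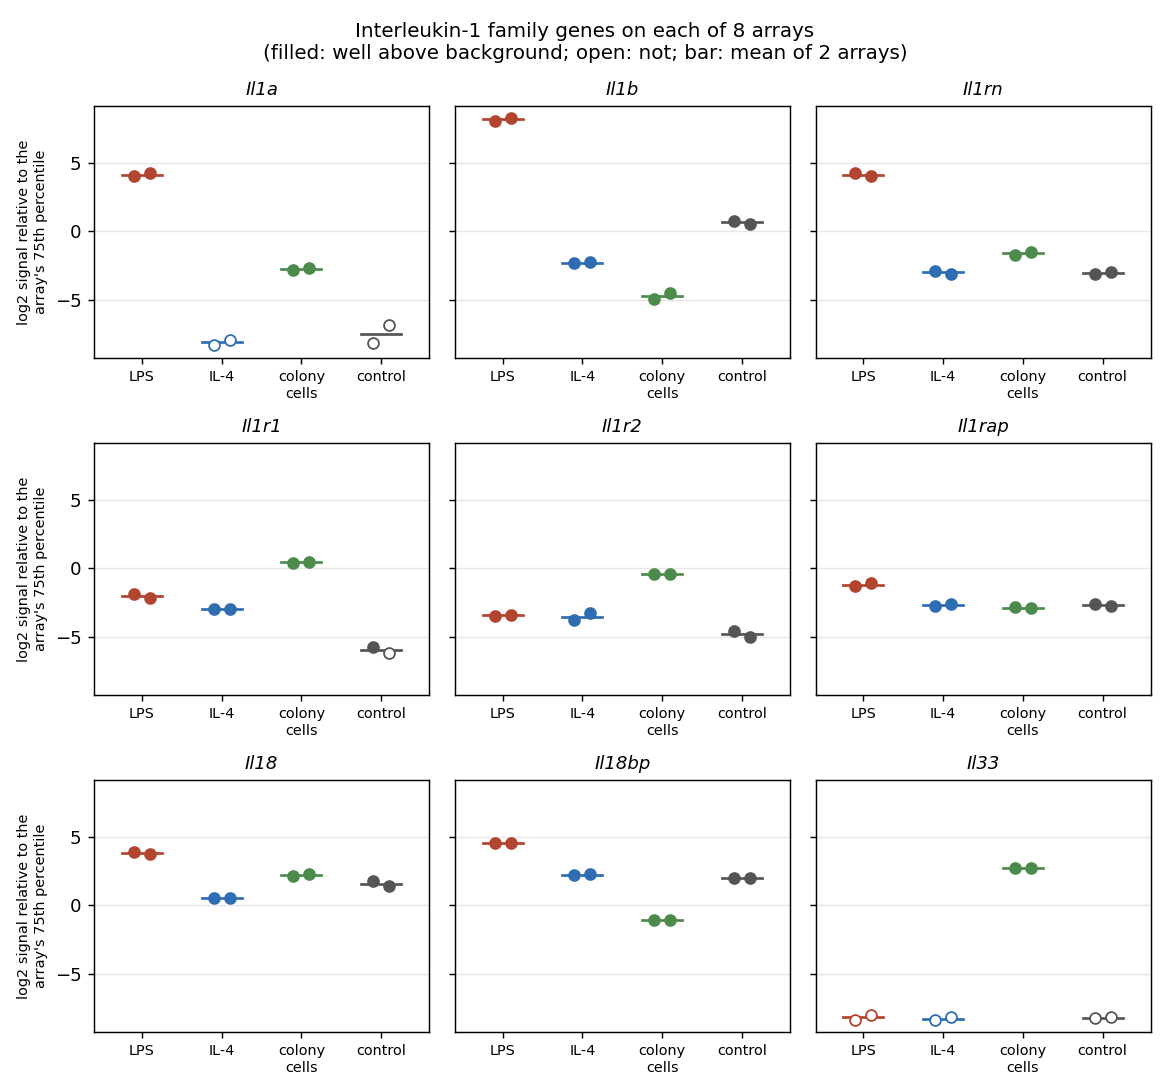
Log2 signal relative to the array's 75th percentile (y axis) for the 9 genes on each of the 8 arrays, by group (x axis). Filled points were well above background, open points were not, and bars are means of 2 arrays. Il1a, Il1b, Il1rn, Il18 and Il18bp were highest in LPS macrophages, and Il1r1, Il1r2 and Il33 were highest in colony cells, where Il33 read 2.70 and 2.76.

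IL-4 moved fewer of these genes: both receptors were higher and Il1b and Il18 lower than in control. Of all genes tested 19.0% were called, 9.87% higher and 9.18% lower, against 2 higher and 2 lower of the 9 members. The members' median log2 fold change was -0.03, and that of all genes -0.01.

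Il1b read -2.32 and -2.26 in IL-4 macrophages, against 0.79 and 0.56 in control, and fell by 2.97 on the log2 scale (SE 0.18, limma adjusted p = 4.6e-04), to 12.8% of control. Il18 read 0.53 and 0.52 in IL-4 macrophages, against 1.79 and 1.39 in control, and fell to 48% of control (-1.06 ± 0.14, limma adjusted p = 0.0068). For neither gene did the 2 groups overlap. Without IL-4 replicate 2, however, Il18 (limma adjusted p = 0.053) and Il1r2 (0.067) were no longer called, which left 2 members.

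Il1r1 read -3.00 and -2.97 in IL-4 macrophages, against -5.74 and -6.23 in control, and was called higher (SE 0.18 on the log2 scale, limma adjusted p = 4.8e-04), with 1 of 2 control arrays well above background. The decoy Il1r2 read -3.77 and -3.29 in IL-4 macrophages, against -4.56 and -5.05 in control, and rose 2.43-fold (1.28 ± 0.21, limma adjusted p = 0.013). With normexp Il1r1 rose by 0.79 and Il1r2, at 0.28, was not called (limma adjusted p = 0.15), and Il1r2 was also lost without control replicate 2 (0.052) and in a fit of these 2 groups alone (0.057). The antagonist Il1rn read -2.88 and -3.10 in IL-4 macrophages, against -3.15 and -2.99 in control, where the groups overlapped (0.08 ± 0.13, limma adjusted p = 0.74). Il18bp differed by 0.23 ± 0.06 and missed the threshold (limma adjusted p = 0.054). Il1a and Il33 were not well above background in either group.

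Set directly against LPS, IL-4 macrophages had lower signal for 7 of the 9 genes, with Il1rap again read by its brightest probe. Of all genes 52.6% were called, 26.8% lower and 25.8% higher, and no member was higher. Il1b was lower by 10.51 (SE 0.18, limma adjusted p = 1.3e-06) and Il1rn by 7.15 (SE 0.13, limma adjusted p = 1.5e-06). Il1a, dim in IL-4 macrophages, was at least 1230-fold lower (-7.42 on the log2 scale with normexp, short of that bound). Il1r2 did not differ past the threshold (-0.08 ± 0.21, limma adjusted p = 0.77), so its levels under the 2 stimuli could not be told apart at this spread. Its rise over control, called for both stimuli, was not called for either with normexp (0.27 with LPS and 0.28 with IL-4).

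Colony cells showed another pattern: Il33, both receptors and Il1rn were higher than in control, and Il1b and Il18bp much lower. Called members numbered 6 higher and 2 lower, where 71.4% of all genes were called, 24.7% higher and 46.7% lower. The median log2 fold change was 1.47 for the members and -0.36 for all genes.

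Il33 read 2.70 and 2.76 in colony cells and was not well above background on any of the 6 macrophage arrays, which lay between -8.43 and -8.04. It was at least 434-fold higher than in control, at least 454-fold higher than in IL-4 and at least 468-fold higher than in LPS macrophages. With normexp it was higher than control by 6.07 on the log2 scale, still called but below that bound. This gene passed the filter on dim probes through colony cells alone, so it had to differ, its place among the 6 higher members supports nothing, and no p is given. Mesothelial markers moved with it: 7 of 8 were well above background in colony cells (Calb2 was not), with a summed scaled signal of 360 to 374, against 1 of 8 and 0.0471 to 0.0611 in control. Fibroblast and stromal markers summed to 413 to 415 in colony cells, all 9 well above background, against 0.67 to 0.834 in control. Of these, 8 were called higher in colony cells and 1 lower. Mast cell and basophil markers summed to 7.17 to 7.2 in colony cells and 0.707 to 0.865 in control. Of 9 endothelial markers, 5 were well above background on both arrays in colony cells and 4 in control. Cdh5 was dim in colony cells alone of the 2 groups, Tek and Esam were dim in control, and Tie1, Emcn and Erg were dim in both. The list summed to 20.7 to 20.8 in colony cells against 33.4 to 38.2 in control. The part of these cell types in the levels of Il33 and of the other members was not tested.

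The signalling receptor Il1r1 read 0.41 and 0.50 in colony cells, against -5.74 and -6.23 in control, and was higher by 6.44 ± 0.18 on the log2 scale (limma adjusted p = 2.4e-06), a fitted value since 1 of the 2 control arrays was not well above background. The decoy Il1r2 read -0.42 and -0.44 in colony cells, against -4.56 and -5.05 in control, and was 20.8-fold higher (4.38 ± 0.21, limma adjusted p = 1.6e-05). Both were higher on the 2 colony arrays than on any macrophage array. With normexp the rises were 3.49 and 2.46, both called. Against LPS macrophages Il1r1 was higher by 2.45 ± 0.18 and Il1r2 by 3.02 ± 0.21 (limma adjusted p = 8.0e-05 and 6.2e-05).

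Il1b read -4.99 and -4.53 in colony cells, against 0.79 and 0.56 in control, and lay at 2.31% of control (-5.43 ± 0.18, limma adjusted p = 3.9e-06). These were the lowest Il1b values of the 8 arrays. Il1a read -2.80 and -2.67 in colony cells and was dim in control, a rise of at least 9.8-fold (limma adjusted p = 1.7e-04). The 2 IL-1 ligand genes thus lay on opposite sides of control. They also did with normexp, where Il1b was at -3.88 and Il1a at 0.92, below the bound just given. Il1rn read -1.71 and -1.49 in colony cells, against -3.15 and -2.99 in control (1.47 ± 0.13, limma adjusted p = 2.0e-04; 0.81 with normexp). The within-array difference Il1rn minus Il1b shifted by 6.90 towards the antagonist, and by 4.68 with normexp. Il1rn minus Il1a shifted the other way, by -3.30 (-0.12 with normexp), with Il1a dim in control.

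Il18 read 2.14 and 2.27 in colony cells, against 1.79 and 1.39 in control, a 1.53-fold rise (0.62 ± 0.14, limma adjusted p = 0.011) that was lost with median centring (0.47, limma adjusted p = 0.063) and without colony replicate 2 (0.55, 0.059). Il18bp read -1.11 and -1.11 in colony cells, against 2.00 and 1.99 in control, and lay at 11.6% of control (-3.11 ± 0.06, limma adjusted p = 8.5e-07). Inhibitor and ligand moved apart here. Il18bp minus Il18 within an array shifted by -3.73 in colony cells, against 0.35 in LPS and 1.29 in IL-4 macrophages, each relative to control.

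**Figure D2:**
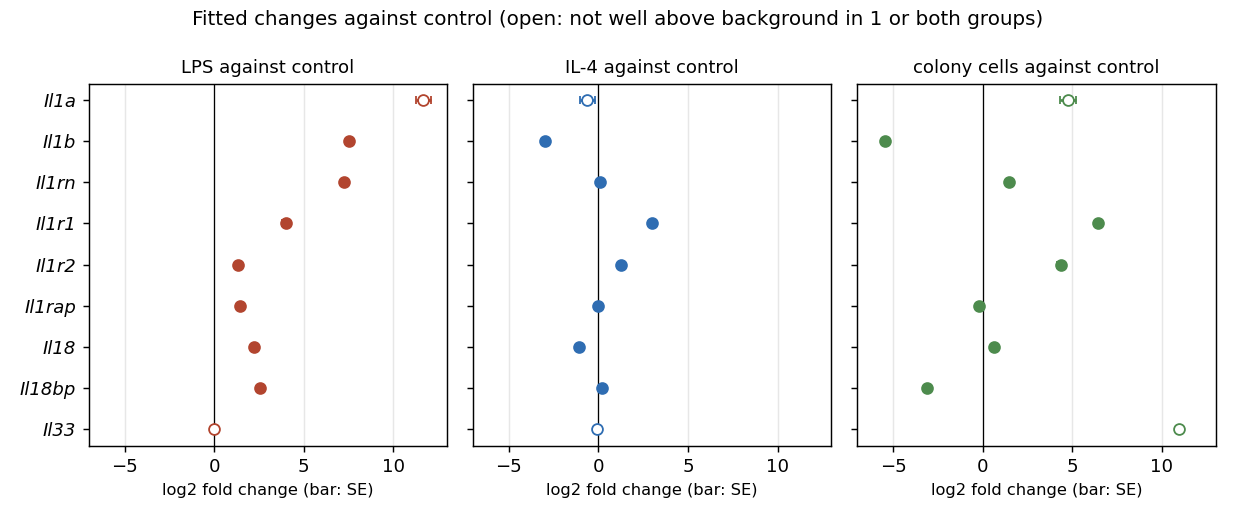
Log2 fold change (x axis, bars are standard errors) of the 9 genes in LPS macrophages, IL-4 macrophages and colony cells, each against control. Open points mark genes not well above background in 1 or both groups, whose fitted value is no measured fold. Il1b rose by 7.54 with LPS and lay at -2.97 with IL-4 and -5.43 in colony cells.

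**Figure D3:**
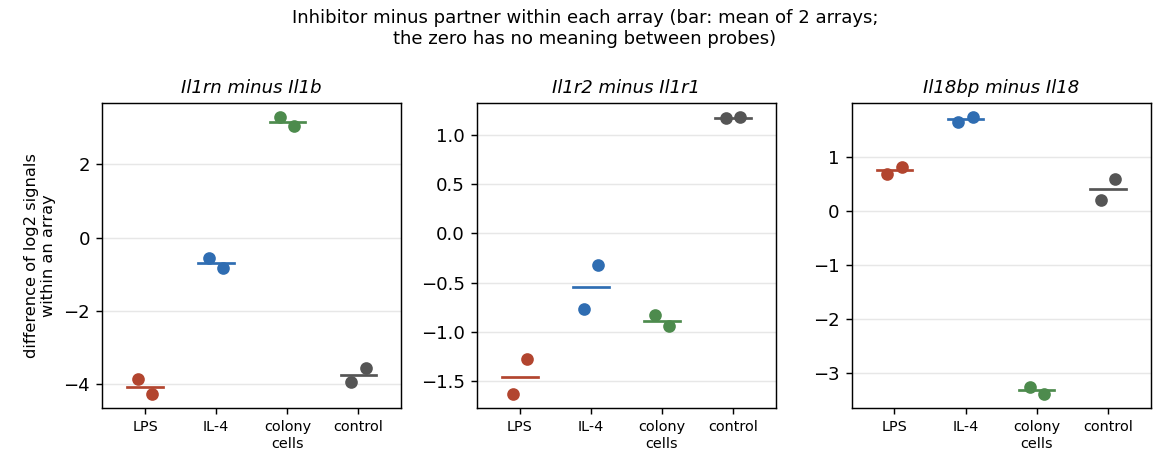
Difference of log2 signals within an array (y axis) between an inhibitor and its partner, for Il1rn and Il1b, Il1r2 and Il1r1, and Il18bp and Il18, by group (x axis), with bars at the mean of 2 arrays. The zero carries no meaning because 2 probes are involved, and only shifts between groups can be read, such as the 6.90 of Il1rn minus Il1b between colony cells and control. Il1rn minus Il1a is not drawn because Il1a was dim in control and IL-4 macrophages.

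Compared with the stimulated macrophages, colony cells again had both receptors higher. Il33 was higher too, but it passed the filter through colony cells alone, so it had to differ, also in the counts that follow. Against IL-4 macrophages 6 members were higher and 2 lower, where 71.6% of all genes were called, 24.3% higher and 47.3% lower. Il1b was lower by 2.47 (SE 0.18, limma adjusted p = 8.2e-05) and Il18bp by 3.34 (SE 0.06, limma adjusted p = 7.7e-07). Against LPS macrophages 3 members were higher (Il1r1, Il1r2 and Il33) and 6 lower, where 76.5% of all genes were called, 26.8% higher and 49.7% lower. There Il1b stood at 0.0124% of LPS (-12.98 ± 0.18, limma adjusted p = 2.9e-07), Il18bp at 1.96% and Il1rn at 1.84%. These comparisons share arrays with those against control and are not independent of them.

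Il1rap, the shared accessory chain, needs separate reading because its 3 probes did not move together. They lie at chr16:26701498-26701557, chr16:26716515-26716574 and chr16:26725291-26725350 (mm9, plus strand), designed against transcript variant 2, transcript variant 1 and an Ensembl transcript. Which protein form, membrane-bound or soluble, each reports is not given in the files. The first 30 of the 60 bases of each probe are shown to identify it.
A_52_P467232: gatgttgtcaacgcctttgtttctaaatgt
A_55_P2041422: catacatctttcagtagtcattggcaaaat
A_55_P2041432: ccattttctttaaccagctcttccttgatc
The variant 2 probe, the brightest and so the one standing for the gene, read -1.33 and -1.11 in LPS macrophages, -2.78 and -2.64 in IL-4 macrophages, -2.83 and -2.92 in colony cells and -2.58 and -2.78 in control. It rose with LPS (1.46 ± 0.12, limma adjusted p = 2.3e-04) and was not called in IL-4 macrophages (-0.03, adjusted p = 0.9) or colony cells (-0.19 ± 0.12, adjusted p = 0.19). In colony cells it was called lower with normexp, quantile normalization or median centring (-0.36, -0.33 and -0.34). The variant 2 probe was below control under each of these settings, and its -0.19 lay above the all-gene median of that comparison (-0.36). The mean of the 3 probes was also called lower (-0.58), but it joins probes that moved in opposite directions (-0.19, 1.15 and -2.70).

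The variant 1 probe read -2.87 and -2.65 in LPS macrophages, -3.77 and -3.78 in IL-4 macrophages, -3.13 and -3.18 in colony cells and -4.27 and -4.34 in control. It was higher than control in all 3, by 1.55 with LPS (limma adjusted p = 1.1e-04), 0.53 with IL-4 (0.021) and 1.15 in colony cells (1.7e-04), in a fit of all 39417 kept probes. The Ensembl transcript probe read -3.74 and -3.60 in LPS macrophages, -2.75 and -2.60 in IL-4 macrophages, -5.32 and -5.44 in colony cells and -2.71 and -2.65 in control. It was lower with LPS (-0.99, limma adjusted p = 6.3e-04) and in colony cells (-2.70, 7.3e-06). Of 8104 genes with several kept probes, 6.05% had probes called in opposite directions between LPS and control and 6.16% between colony cells and control. The fit by probe was added after the values had been seen.

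**Figure D4:**
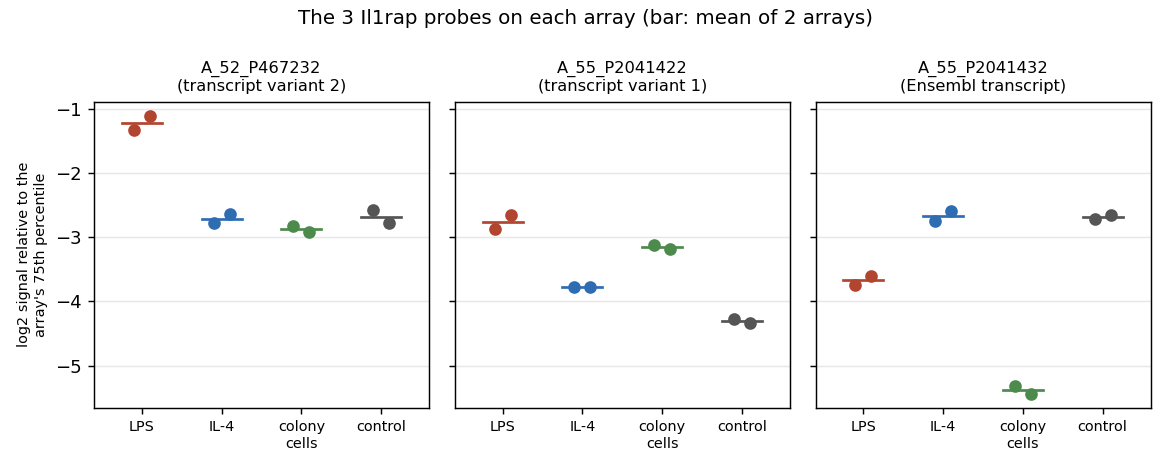
Log2 signal relative to the array's 75th percentile (y axis) of the 3 Il1rap probes on each array, by group (x axis), with bars at the mean of 2 arrays. The Ensembl transcript probe was lowest in colony cells (-5.32 and -5.44), while the variant 1 probe was lowest in control (-4.27 and -4.34).

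Other genes of the pathway were read from 5 lists. The shares of all genes called, to read the counts against, were 28.9% higher and 25.8% lower with LPS, 9.87% and 9.18% with IL-4, and 24.7% and 46.7% in colony cells. The receptor signalling chain had 9 of 18 genes higher and 4 lower with LPS, 2 higher and 6 lower with IL-4, and 0 higher and 14 lower in colony cells. Its median log2 fold change in colony cells was -0.86, against -0.36 for all genes. Irak3, an inhibitory kinase of the chain, rose by 3.72 ± 0.08 with LPS and fell by 1.00 with IL-4 and by 2.92 in colony cells (limma adjusted p = 2.8e-06, 0.0011 and 1.9e-06). Myd88, the adaptor, rose by 2.06 with LPS and fell by 1.66 in colony cells. Peli2 was lower both with LPS (-2.12) and in colony cells (-3.65), where its change was the largest of this list.

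Genes that process or release the ligands had 7 of 13 higher and 4 lower with LPS, 2 higher and 4 lower with IL-4, and 1 higher and 11 lower in colony cells. Casp1, whose protease cuts IL-1 beta and IL-18 to their active forms, was 2.7-fold higher with LPS and lay at 7.08% of control in colony cells. Mefv (pyrin) rose by 3.62 with LPS and fell by 5.43 in colony cells. Larger colony changes were those of Txnip (-6.81), which was also lower with LPS (-1.32), and Nlrc4 (-6.09). The colony sums of macrophage markers given above move with the falls in colony cells, and their part was not tested.

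Genes known to respond to IL-1 had 14 of 14 called higher with LPS, 2 higher and 7 lower with IL-4, and 6 higher and 4 lower in colony cells, though Mmp3 was dim in both LPS and control and Csf3 passed the filter through LPS alone. LPS is also known to act through MyD88. With LPS the cytokine Il6 was at least 1300-fold higher, and the acute phase gene Saa3 (10.55 ± 0.21) and the prostaglandin synthase gene Ptgs2 (9.42 ± 0.12) rose (limma adjusted p = 2.2e-06, 2.5e-06 and 1.2e-06). With IL-4 the chemokine Ccl2 was higher by 2.61 ± 0.10 and Cxcl1 at least 3.66-fold lower (limma adjusted p = 1.2e-04 and 1.1e-04). In colony cells Ccl2 (6.97 ± 0.10) and Ptgs2 (6.90 ± 0.12) were higher, as was Il6 (at least 13.8-fold), with limma adjusted p = 5.0e-07, 6.9e-07 and 6.7e-06. The matrix protease gene Mmp3 was at least 73.7-fold higher, but it passed the filter through colony cells alone and so had to differ. Among 6 other receptors tested, Il1rl1, the receptor of IL-33, was lower by 3.54 (SE 0.10) with LPS and higher by 2.10 ± 0.10 with IL-4 and 2.75 ± 0.10 in colony cells (limma adjusted p = 6.7e-06, 2.6e-04 and 6.3e-06). Il18rap, a chain of the IL-18 receptor, was higher in colony cells by 4.38 ± 0.56 (limma adjusted p = 8.6e-04). Mast cell and basophil markers moved with both receptors in colony cells only, where 8 of 9 were called higher than in control (median 4.32). With LPS, where Il1rl1 was lower, 1 of 9 markers was higher and 2 lower, and their summed scaled signal was 8.62 to 9.25. That sum was led by Hdc (3.08 on the log2 scale), and 3 of 9 markers were well above background on both LPS arrays. With IL-4, where Il1rl1 was higher, 0 were higher and 2 lower, and the sum was 0.428 to 0.518. Colony cells summed to 7.17 to 7.2, led by Cpa3 and with 9 of 9 well above background, and control to 0.707 to 0.865. The part of these cells was not tested. Receptor counts were 1 higher and 2 lower with LPS, 2 higher and 1 lower with IL-4, and 4 higher and 1 lower in colony cells. Of these, Il1rl2 was dim in both IL-4 and control and passed the filter through LPS alone, and Il18r1 and Il1rapl1 passed through colony cells alone. Of 3 other family ligands tested, 2 were higher with LPS: Il1f6 by at least 35.2-fold and Il1f9 by at least 9.39-fold. Both passed the filter through LPS macrophages alone, so those calls were fixed by the filter. With IL-4 none of the 3 was called, and in colony cells 2 were called lower, of which Il1f6 was dim in both groups.

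**Figure D5:**
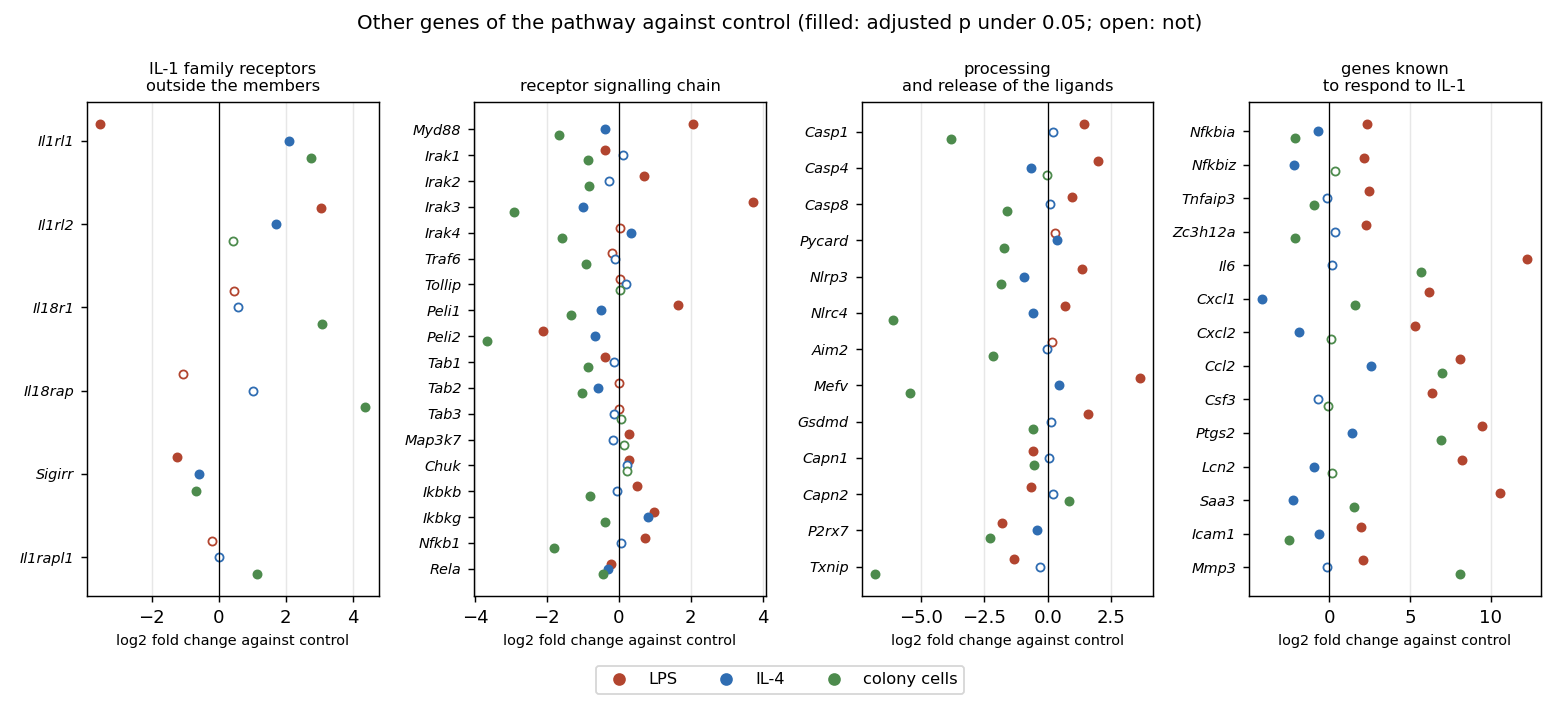
Log2 fold change against control (x axis) of pathway genes outside the 9 members (y axis), for LPS macrophages, IL-4 macrophages and colony cells. Filled points had an adjusted p under 0.05. In colony cells 14 of 18 signalling genes and 11 of 13 processing genes were lower.

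The genes closest in pattern were found by the root mean square difference of centred log2 values over the 8 arrays, among 15960 genes, and are given as a description. Il1a lay nearest to Il6 (0.50) and Il1rn to Il23r (0.33). Il1b lay farther from its nearest gene, Cxcl10 (1.04). Il1r1 lay nearest to Spint1 (0.36), Il1r2 to Scin (0.15) and Il1rap to Urah (0.07). Il18 lay nearest to Filip1l (0.20), Il18bp to Fnbp1 (0.15) and Il33 to Ces2e (0.03). Il33 was well above background on the colony arrays only, and Il1a on the LPS and colony arrays only. Their distances therefore rest in part on background readings.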

How the data were processed

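RNA of 8 mouse samples was measured on 1-colour Agilent arrays. Spot signals in intensity units were made by Feature Extraction 10.7.3.1 on probe positions of build mm9, per the file headers. The value table deposited by the authors is on the log2 scale and holds 34119 of 55681 probes, all 11 member probes among them. Each of its columns followed the scanner signal minus a near-constant offset per array (SD at most 0.024, column medians 2.53 to 2.96). What set the offset is not given in the sources used here. The submitters' processing notes list Partek 6.4 and RMA, with no step given for either.

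Uneven or outlying spots were left out, log2 signals were taken relative to each array's 75th percentile, and spots of a probe were averaged. A probe was kept (39417 were) if, in any 1 group, both arrays showed it well above background. Each gene was read from its kept probe with the highest mean (26508 genes, 39 with a missing value). All 9 members passed, Il1a through LPS and colony cells and Il33 through colony cells only. limma 3.58.1 in R 4.3.3 fitted 4 group means over all 8 arrays (4 residual and 1.57 prior degrees of freedom), with Benjamini-Hochberg adjustment over all genes, and the script was tested on simulated data. For 2 against 2 arrays the smallest two-sided p of an exact permutation test is 0.333, so groups that do not overlap are weak evidence alone. Calls rest on variances shared across genes. The number of arrays limits the precision. All arrays lay on 1 slide read in 1 scan, so neither differs between groups.

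A gene dim on both arrays of 1 group gets a bound, and one dim in both groups gets no fold. The lowest signal well above background is that of any probe on the array, not a detection limit of the gene's own probe. A bound therefore holds for this processing only, and with normexp Il1a and Il33 fell short of theirs. Named genes were all members, up to 4 called genes with the largest change from each pathway list, and the 2 nearest genes in pattern, of which the text gives the nearest. The Casp1 and Txnip values with LPS fall outside that rule and were chosen after they were seen. The members, lists and motifs were chosen with earlier results of these data known.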

Additional observations from a re-analysis of the deposited data

How the results depend on the processing

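Of 1008 values of single members recomputed under other settings, 963 kept their direction and side of the threshold, 8 lost their call, 10 gained one, 26 changed sign with no call under either setting, and 1 became a call in the opposite direction. That value was Il33 between LPS and control with normexp (-0.48, limma adjusted p = 0.021), where the gene was dim in both groups. Requiring probes to be well above background on all 8 arrays removed Il1a, Il1r1 and Il33 and left 6 members to test in every comparison. Of these, 6 were called for LPS against control and 4 for IL-4 against control. In colony cells 5 were called against control and 5 against IL-4. Leaving out 1 array at a time gave 8 to 8 called members for LPS against control, 2 to 5 for IL-4 against control (2 without IL-4 replicate 2), 7 to 8 for colony cells against control, 7 to 7 for IL-4 against LPS, 8 to 8 for colony cells against IL-4 and 9 to 9 for colony cells against LPS. A lone remaining array was assumed to vary like the other groups. Il1rap changed with the probe read: the Ensembl transcript probe gave -0.99 for LPS against control and 0.99 for IL-4 against LPS, both opposite to calls of the brightest probe. The variant 1 probe gave 0.53 for IL-4 against control, 1.15 for colony cells against control and 0.62 for colony cells against IL-4, where the brightest probe made no call. The cause was not tested. The labels do not say that replicate numbers mark a shared animal or day, so the numbers were not taken as pairs. Deviations of same-numbered arrays had r of -0.16 to 0.052, which cannot settle pairing with 2 arrays per group. With a replicate block the called members numbered 8, 4 and 8 for LPS, IL-4 and colony cells against control. Scaling moved the share of higher calls between LPS and control over all genes, 52.9% as reported, 42.5% with normexp, 44.2% with quantile normalization, 39.9% with median centring and 38.5% in the deposited table, and the all-gene median of that comparison to as low as -0.15, and that of colony cells against control (-0.36) to between -0.50 and -0.30. Member values are given without subtracting these medians. The slide as a block was not run, since there was 1 slide. Signals near background limit Il1a, Il1r1, Il1r2 and Il33 in control.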
